A study of Homo sapiens with 4 samples.

Results

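Protocadherins are single-pass adhesion proteins of the cadherin superfamily, and 66 protein-coding genes whose symbol starts with PCDH were found among the 58735 gene identifiers of the count table. They were chosen by symbol alone and fall into 15 PCDHA, 16 PCDHB, 22 PCDHG and 13 nonclustered genes. The cells carry the label A549, an established line from a human lung adenocarcinoma, with a wild-type genotype, and their RNA was sequenced after staining with an antibody to ICAM1 and fluorescence-activated sorting. The sort gave an ICAM1-high subset with 2 libraries and an ICAM1-low subset with 2 libraries, both from cells grown in DMEM with serum and antibiotics and with no other treatment named. The labels do not say whether libraries derive from different cultures, and p-values then reflect only how these libraries vary, which may be technical. ICAM1, the sorting marker, is a surface glycoprotein to which leukocyte integrins bind.

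The clustered protocadherins lie in tandem on chromosome 5 and are best known from neurons, where each cell uses its own combination of isoforms and the extracellular domains bind the same isoform on a neighbouring cell. In PCDHA and PCDHG each gene has its own large first exon, with its own promoter, spliced to constant exons that all genes of the cluster share. PCDHB genes have a single coding exon and no constant part. Nonclustered protocadherins are scattered over the genome, and their delta-1 and delta-2 subfamilies differ in their cytoplasmic tails. In epithelia and carcinomas, several are known as adhesion molecules or as genes silenced by promoter methylation.

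Depth was 17638647 and 17271825 counts in the ICAM1-high libraries, against 16665362 and 16272591 in the ICAM1-low libraries. A count of 0 allows up to 3 counts, or 0.161 to 0.163 CPM (TMM-scaled counts per 1e6 counts) per ICAM1-high library and 0.192 to 0.196 CPM per ICAM1-low library. Such floors and all counting intervals cover counting error only. ICAM1 (ENSG00000090339) was at 113 ± 3.60 CPM in ICAM1-high, against 4.75 ± 0.202 CPM in ICAM1-low (SD, n = 2 each). A549 is known for the loss of MTAP, CDKN2A and CDKN2B, and these summed to 88.1 and 101 CPM in the ICAM1-high libraries, against 0.064 and 0.522 CPM in the ICAM1-low libraries. For both ICAM1-high libraries these values go against the label. Leaving out both would leave no comparison, so values with each of them left out singly are given for the called genes. Each such fit keeps the other ICAM1-high library, which has the same conflict, so these values cannot address the label. Of 8 transcripts abundant in A549, 6 were called lower and 2 higher in ICAM1-high, beside 29.4% and 30.4% of all genes tested. The summed level of these 8 was 16600 and 16100 CPM in ICAM1-high, against 26400 and 25700 CPM in ICAM1-low.

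The protocadherin with the largest difference was PCDH7, a nonclustered adhesion protein of the delta-1 subfamily, which was abundant in ICAM1-high and nearly absent from ICAM1-low. PCDHGC3, a C-type isoform of the gamma cluster, was 2.58-fold higher in ICAM1-high, and the sparsely counted PCDH10 was also called higher. The alpha cluster genes PCDHA12, PCDHAC1 and PCDHAC2 were lower in ICAM1-high, as were PCDHGA2 and PCDHB6. Of the 66 genes, 23 were abundant enough to be tested. Of these 23, 3 were called higher and 5 lower in ICAM1-high (quasi-likelihood test of edgeR, p adjusted by Benjamini-Hochberg under 0.05), 34.8% in all. Over all 16250 genes tested 59.7% were called, 30.4% higher and 29.4% lower. Over the 4876 genes with a mean from 0.5 to 5 CPM, the range that held 17 of the 23 tested protocadherins, 36.1% were called (25.3% higher and 10.8% lower), against 1 higher and 3 lower among those 17. The median log2 fold change (ICAM1-high minus ICAM1-low) of the 23 was -0.02, and that of all genes tested was 0.01. The filter kept a gene that was abundant enough in a single subset, and PCDH10, PCDHGA1, PCDHGA6 and PCDHGB4 passed through ICAM1-high alone, PCDHB6 and PCDHGA2 through ICAM1-low alone. RNA was pooled over sorted cells, so fewer cells with a transcript and less of it per cell cannot be told apart.

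**Figure D1:**
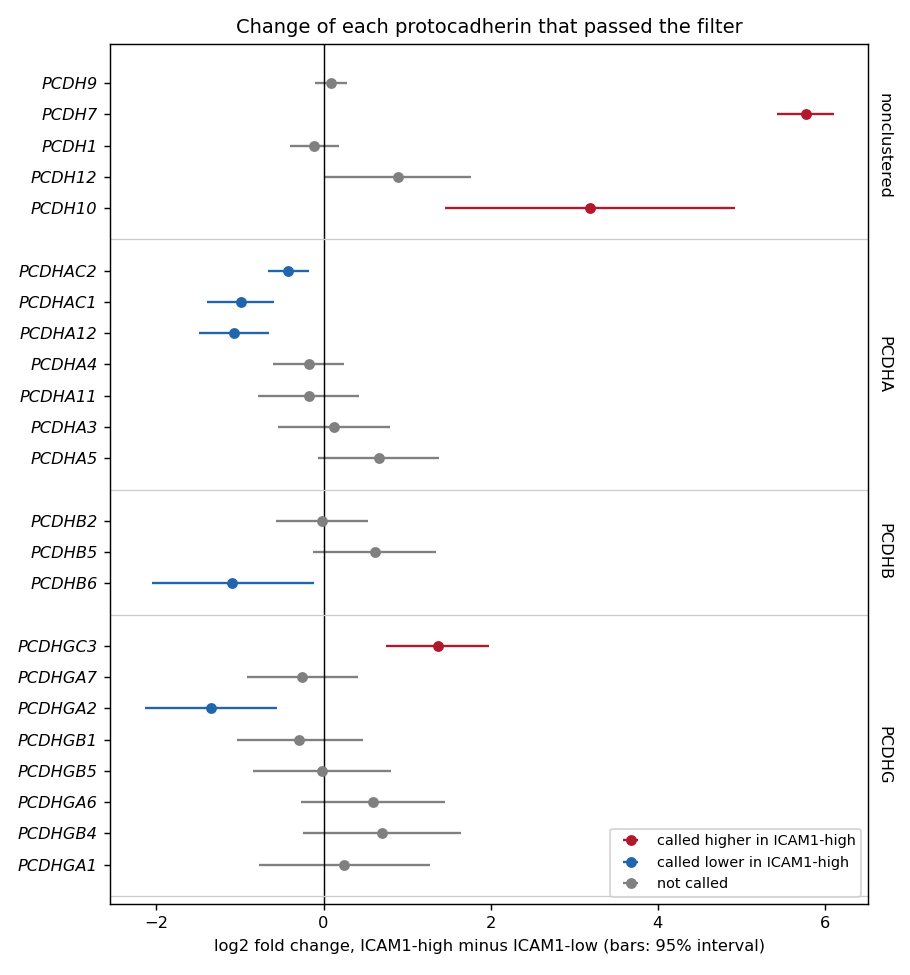
Log2 fold change, ICAM1-high minus ICAM1-low, of the 23 protocadherins that passed the filter, grouped by class, with 95% intervals as bars and colours for the edgeR call. PCDH7 stands at 5.77, PCDH10 at 3.19 and PCDHGC3 at 1.37, whereas the 5 genes called lower lie between -0.42 and -1.35.

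Among the delta-1 protocadherins, which share a cytoplasmic motif that binds protein phosphatase 1, PCDH7 (ENSG00000169851, chromosome 4, 30720415 to 31146805, GRCh38) was counted 790 and 855 times in the ICAM1-high libraries, against 10 and 15 times in the ICAM1-low libraries. This corresponds to 42.4 and 46.6 CPM in ICAM1-high, against 0.640 and 0.978 CPM in ICAM1-low, and the subsets did not come near each other. Its log2 fold change was 5.77 (SE 0.17, 95% interval 5.43 to 6.11, adjusted p = 2.08e-41), or 54.6-fold, the 159th largest of the 16250. With single libraries left out it ranged from 5.49 to 6.09, including 5.83 without ICAM1-high replicate 1 and 5.70 without replicate 2. Of 12 fibroblast markers 7 were tested, of which 5 were called higher in ICAM1-high, where 30.4% of all genes were, and the other 2 were not called. LUM, PDGFRB and FAP, 3 of these 5, passed the filter through ICAM1-high alone. The summed level of all 12 fibroblast markers was 78.3 and 89.2 CPM in ICAM1-high, against 47.8 and 50.5 CPM in ICAM1-low. Most of it came from FBLN1, with means of 48.8 and 42.9 CPM, and COL1A1, with 28.5 and 4.07 CPM, in the same order of subsets. POSTN was at 0 in all libraries, and COL1A2 and COL3A1 were at 0 in ICAM1-high. The part of these markers in the PCDH7 difference was not tested. The human PCDH7 protein is known to bind SET, an inhibitor of protein phosphatase 2A.

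PCDH9, another delta-1 gene known mainly from the nervous system, was counted 1648 times over the 4 libraries, nearly as often as PCDH7 with 1670. It was at 25.8 and 24.1 CPM in ICAM1-high, against 22.5 and 24.3 CPM in ICAM1-low, so the subsets overlapped. Its log2 fold change of 0.09 was not called, and the 95% interval of -0.10 to 0.28 corresponds to 0.936-fold to 1.22-fold. With scaling by library size alone it was called higher (0.27, adjusted p = 0.012). PCDH1, which is known from the airway epithelium, where it serves adhesion and is linked to asthma, was at 9.28 and 8.11 CPM in ICAM1-high, against 9.34 and 9.39 CPM in ICAM1-low. The log2 fold change was -0.11 with an interval of -0.40 to 0.19, likewise not called. The X and Y homologues PCDH11X and PCDH11Y, which are nearly identical and may split reads, had 0 and 2 counts in ICAM1-high, against 0 and 0 in ICAM1-low.

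The delta-2 genes were hardly counted in these libraries. PCDH10, known for promoter methylation in carcinomas and, in mouse, for binding the WAVE complex subunit NCKAP1, had 11 and 13 counts in the ICAM1-high libraries, against 1 and 1 in the ICAM1-low libraries. Its counting ratio was 10.0 (95% exact interval 2.49 to 87.6), and the fitted log2 fold change was 3.19 (SE 0.87, adjusted p = 0.00115). Because it passed the filter through ICAM1-high alone, at 0.649 ± 0.0832 CPM (SD, n = 2), its direction was largely set by the filter. Without ICAM1-high replicate 2, or with a minimum mean of 1 CPM, it was not tested, and without ICAM1-high replicate 1 the value was 3.30. PCDH19, an X-linked gene of female-limited epilepsy, had 4 and 1 counts in ICAM1-high, against 0 and 0 in ICAM1-low, too few for a fold change. PCDH17 had 0 counts in ICAM1-high, against 1 in ICAM1-low, and PCDH8 and PCDH18 had 0 in all 4 libraries.

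The remaining nonclustered genes were PCDH12, PCDH15 and PCDH20. PCDH12, an endothelial adhesion protein also called VE-cadherin-2, was at 1.61 and 1.03 CPM in ICAM1-high, against 0.640 and 0.782 CPM in ICAM1-low. Its libraries did not overlap, but its log2 fold change of 0.89 (SE 0.43) was not called (adjusted p = 0.071). With scaling by library size alone it was called (1.06, adjusted p = 0.0293). PCDH12 shares 108 exon bases with RNF14 on the other strand, which was counted 1701 times in ICAM1-high and 1886 times in ICAM1-low, and the strand setting is not given. Of 12 endothelial markers listed, 6 were tested, of which 4 were called higher and 1 lower in ICAM1-high, beside 30.4% and 29.4% of all genes. CDH5 and ERG, 2 of these 4, passed the filter through ICAM1-high alone. The summed level of all 12 endothelial markers was 52.0 and 56.9 CPM in ICAM1-high, against 37.0 and 40.2 CPM in ICAM1-low. Among the 12, 5 markers had 0 counts in ICAM1-low. Of these 5, ERG had 89 counts in ICAM1-high, while VWF had 5, KDR 5, TEK 3 and TIE1 1, too few to tell the subsets apart. EGFL7 alone gave 25.8 CPM of that mean sum in ICAM1-high, against 29.4 CPM in ICAM1-low, and the defining marker CDH5 had 64 counts in ICAM1-high, against 1 in ICAM1-low. The part of the endothelial markers in the PCDH12 difference was not tested. PCDH15, a component of the tip links of inner ear hair cells, and PCDH20 had 0 counts in all libraries, but 4577 of the 4778 exon bases of PCDH20 are shared with another annotated gene, which also had 0.

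**Figure D2:**
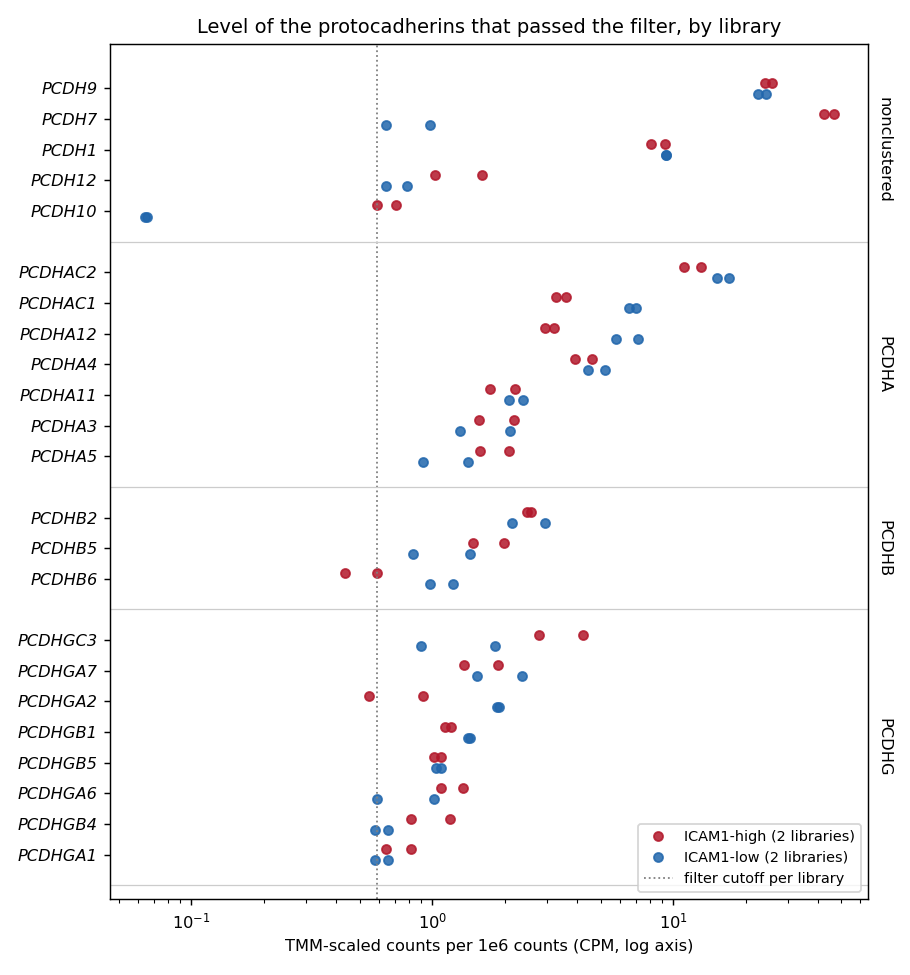
TMM-scaled CPM (log axis) of the 23 protocadherins that passed the filter, with 1 point per library, ICAM1-high in red above ICAM1-low in blue, and the filter's cutoff of 0.589 CPM as a dotted line. PCDH7 is the only gene whose subsets lie far apart at a high level, at 42.4 and 46.6 CPM against 0.640 and 0.978 CPM, whereas PCDH9 and PCDH1 lie close together.

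In the clusters, the annotation itself limits what a gene's count can hold. Of the exon blocks of GENCODE release 29, constant exons 1 and 2 have the same coordinates in all 15 PCDHA genes, and the same is true of all 22 PCDHG genes. Both pairs measure 59 and 89 bases. They are shown because a read within them cannot be given to a single gene of its cluster. Capitals mark the bases that are identical at the same position in both clusters, 39 of 59 (66.1%) in exon 1 and 29 of 89 (32.6%) in exon 2, with all sequences on the plus strand of GRCh38.
PCDHA constant exon 1, chr5:140978949-140979007: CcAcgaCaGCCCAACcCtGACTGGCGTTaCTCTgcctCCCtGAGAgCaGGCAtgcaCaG
PCDHG constant exon 1, chr5:141494807-141494865: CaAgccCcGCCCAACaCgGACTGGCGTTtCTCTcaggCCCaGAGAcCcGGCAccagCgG
PCDHA constant exon 2, chr5:140982475-140982563: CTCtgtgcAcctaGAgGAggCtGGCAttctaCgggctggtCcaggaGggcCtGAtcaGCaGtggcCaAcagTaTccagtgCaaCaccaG
PCDHG constant exon 2, chr5:141505393-141505481: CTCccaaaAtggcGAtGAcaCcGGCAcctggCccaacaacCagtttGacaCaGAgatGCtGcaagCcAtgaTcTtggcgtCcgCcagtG

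The third constant exon extends over 2718 bases in 14 PCDHA genes and 2033 bases in 21 PCDHG genes. Together 2866 exon bases of PCDHA1 and 2181 of PCDHGA1 are shared with other genes of their cluster, and PCDHGB4 and PCDHGA8, which also overlap each other, share 4447 each. How the authors treated reads in shared exons is not given in the sources used here. The deposited counts show that such reads were not added to every gene, since PCDHGA11 and PCDHGC4 had 0 counts in all libraries and PCDHA9 had 4 in all. Values of single PCDHA and PCDHG genes are therefore read as values of their own exons, with an unknown share of constant-exon reads. PCDHB genes share no exon bases with each other, although their coding exons are similar, and reads that match several of them may have been dropped or split.

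The alpha cluster was the one that differed most as a whole, being lower in ICAM1-high. Summed over its 15 genes, 552 and 558 counts were recorded in the ICAM1-high libraries, against 634 and 634 in the ICAM1-low libraries. This gave 30.0 ± 0.543 CPM in ICAM1-high, against 40.9 ± 0.557 CPM in ICAM1-low (SD, n = 2 each), a ratio of 0.733 that is given without a test. The neuronal marker list moved the same way in these libraries. Of 14 neuronal markers 8 were tested, of which 6 were called lower in ICAM1-high, where 29.4% of all genes were, and the other 2 were not called. Their summed level was 153 and 136 CPM in ICAM1-high, against 231 and 234 CPM in ICAM1-low, with the defining markers STMN2, ELAVL4 and DCX at 0 counts in all libraries. The part of the neuronal markers in the PCDHA difference was not tested.

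PCDHAC2, a C-type alpha isoform known in mouse for the tiling of serotonergic axons, was the leading member of the cluster. It was at 11.1 and 13.0 CPM in ICAM1-high, against 15.2 and 17.1 CPM in ICAM1-low, without overlap. Its log2 fold change was -0.42 (SE 0.12, adjusted p = 0.00235), and the call was lost without ICAM1-low replicate 2 (-0.34, adjusted p = 0.0563) and with scaling by library size alone (-0.25, adjusted p = 0.0762). The value was -0.32 without ICAM1-high replicate 1 and -0.54 without replicate 2. The other C-type alpha gene, PCDHAC1, was at 3.59 and 3.27 CPM in ICAM1-high, against 6.59 and 7.04 CPM in ICAM1-low. The difference on the log2 scale was -0.99 (SE 0.20, adjusted p = 1.89e-05). PCDHA12, the alternate isoform with the clearest difference, was at 2.95 and 3.21 CPM in ICAM1-high, against 5.82 and 7.17 CPM in ICAM1-low (log2 fold change -1.07, SE 0.21, adjusted p = 9.41e-06). Both PCDHAC1 and PCDHA12 were called in all 10 alternative settings. Without ICAM1-high replicate 1 the values were -1.07 for PCDHAC1 and -1.02 for PCDHA12, and without replicate 2 they were -0.92 and -1.14 in the same order of genes.

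The other 4 tested alpha genes were not called, and all but PCDHA5 overlapped between the subsets. PCDHA4 was at 4.61 and 3.92 CPM in ICAM1-high, against 5.24 and 4.43 CPM in ICAM1-low, with a 95% interval of its log2 fold change from -0.60 to 0.24. PCDHA11 and PCDHA3 had log2 fold changes of -0.17 and 0.13, and PCDHA5 had 0.66 (interval -0.07 to 1.38, adjusted p = 0.114). Of the 7 tested alpha genes edgeR called 3 lower and 0 higher, beside 29.4% and 30.4% of all genes tested. Those called higher also numbered 0 with DESeq2, and 0 at an unadjusted p under 0.05. With scaling by library size alone PCDHA5 was called higher (0.83, adjusted p = 0.0426).

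Within the alpha cluster's counts, PCDHAC2 took a similar share in both subsets, 37.5% and 42.8% in the ICAM1-high libraries, against 37.4% and 41.5% in the ICAM1-low libraries. PCDHA12 took 9.96% and 10.6% in ICAM1-high and 14.4% and 17.4% in ICAM1-low. Wilson 95% intervals of these 4 shares ran from 7.74% to 13.4% in ICAM1-high and from 11.8% to 20.5% in ICAM1-low. The remaining 8 alpha genes (PCDHA1, 2, 6, 7, 8, 9, 10 and 13) were too sparse to test, with at most 23 counts over the 4 libraries. Among them PCDHA13 had 3 and 2 counts in ICAM1-high, against 14 and 3 in ICAM1-low, so 1 library decides its ratio of 0.246 (95% exact interval 0.071 to 0.695). PCDHA8 had 8 and 0 counts in ICAM1-high, against 0 and 0 in ICAM1-low, again from a single library.

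**Figure D3:**
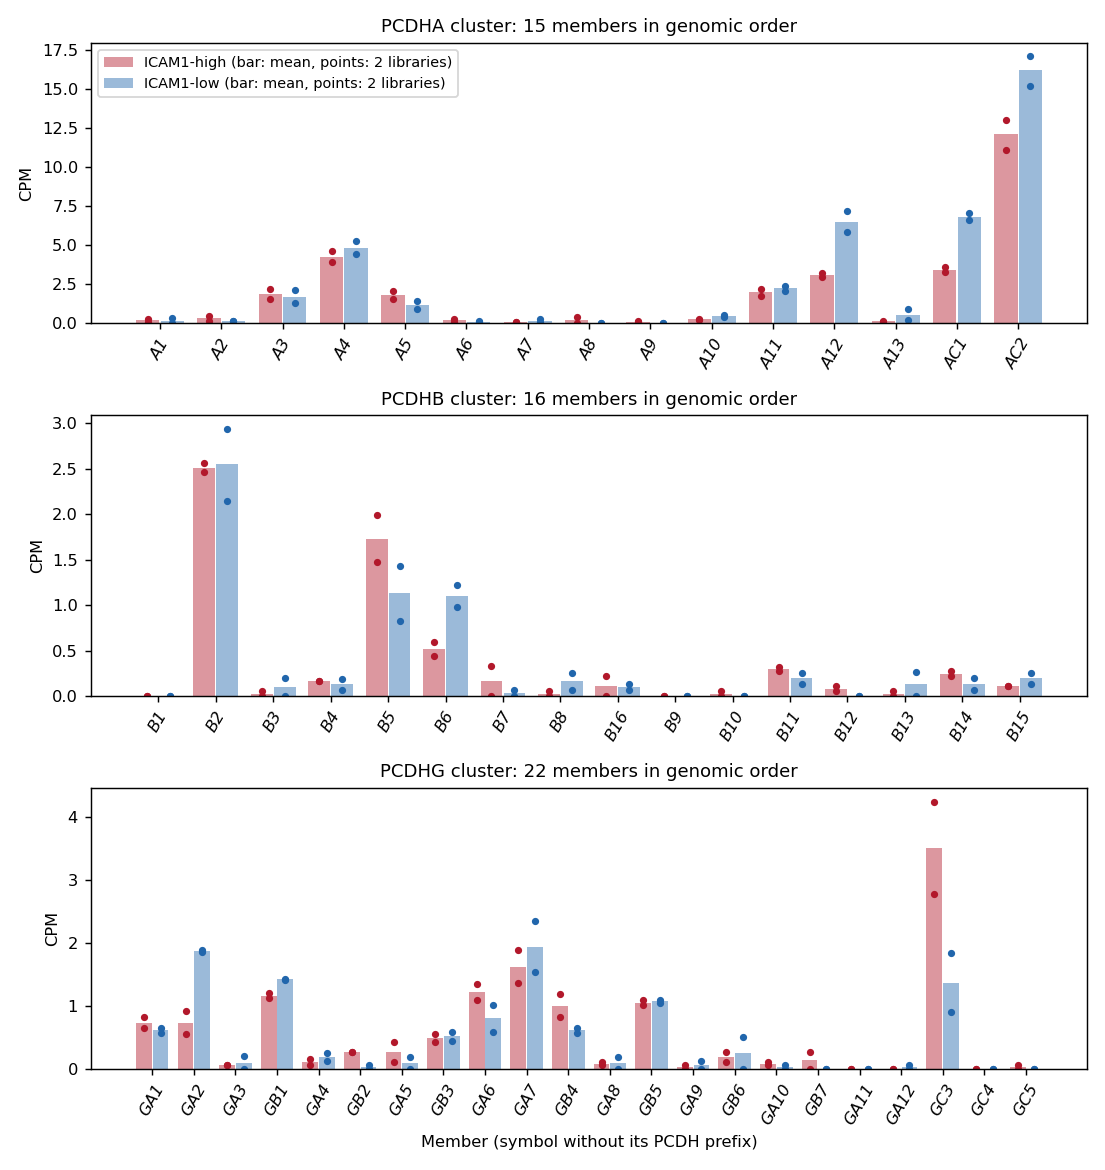
Level (CPM, linear axes that differ between panels) of every clustered protocadherin in its order along chromosome 5, with bars for the mean of 2 libraries, points for the libraries, and ICAM1-high in red left of ICAM1-low in blue. Counts concentrate in a few genes of each cluster: PCDHAC2 leads PCDHA in both subsets, PCDHB2 leads PCDHB, and PCDHGC3 leads PCDHG in ICAM1-high at 3.51 CPM, against 1.36 CPM in ICAM1-low.

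The beta cluster had the lowest sum and did not separate the subsets, with 6.12 and 5.94 CPM over 16 genes in ICAM1-high and 6.14 and 5.74 CPM in ICAM1-low. PCDHB2 and PCDHB5 held 70.4% of its counts in ICAM1-high, against 62.0% in ICAM1-low. PCDHB2 was at 2.47 and 2.56 CPM in ICAM1-high, against 2.94 and 2.15 CPM in ICAM1-low, with overlapping libraries and a log2 fold change of -0.02 (95% interval -0.57 to 0.53). PCDHB5 was at 1.99 and 1.47 CPM in ICAM1-high, against 0.831 and 1.43 CPM in ICAM1-low, and its log2 fold change of 0.61 was not called (adjusted p = 0.155). PCDHB6 was at 0.590 and 0.436 CPM in ICAM1-high, against 1.22 and 0.978 CPM in ICAM1-low. It passed the filter through ICAM1-low alone, the subset where it was higher. It was called lower with -1.09 on the log2 scale (SE 0.48, adjusted p = 0.047), but the call was kept in 1 of the 9 alternatives that tested it, and adjusted p ranged from 0.0464 to 0.268. The value was -1.32 without ICAM1-high replicate 1 and -0.89 without replicate 2, neither called. Of the other 13 beta genes, PCDHB1 and PCDHB9 had 0 counts and the rest at most 17 over the 4 libraries.

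The gamma cluster holds A-type, B-type and C-type genes, which are summed apart here without a test. Summed over 22 genes it was at 14.3 and 11.2 CPM in ICAM1-high, against 10.7 and 11.5 CPM in ICAM1-low, with overlapping libraries. A-type genes summed to 5.58 and 4.25 CPM in ICAM1-high, against 5.82 and 5.87 CPM in ICAM1-low, and B-type genes to 4.40 and 4.19 CPM in ICAM1-high, against 4.03 and 3.78 CPM in ICAM1-low. C-type genes summed to 4.29 and 2.78 CPM in ICAM1-high, against 0.895 and 1.83 CPM in ICAM1-low, nearly all of it from PCDHGC3. PCDHGC4, which in mouse is required for the survival of interneurons, had 0 counts in all libraries and PCDHGC5 had 1.

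PCDHGC3, which in mouse binds Axin1 and dampens Wnt signalling, was counted 79 and 51 times in the ICAM1-high libraries, against 14 and 28 times in the ICAM1-low libraries. At 4.24 and 2.78 CPM in ICAM1-high, against 0.895 and 1.83 CPM in ICAM1-low, the subsets did not overlap. Within each of the subsets, however, the libraries differed by more than 1.5-fold. Its log2 fold change was 1.37 (SE 0.31, adjusted p = 0.000115) and ranged from 0.93 to 1.95 with single libraries left out, called each time. It was 1.02 without ICAM1-high replicate 1 and 1.63 without replicate 2. Its share of the gamma cluster's counts was 29.7% and 24.8% in the ICAM1-high libraries, against 8.33% and 15.9% in the ICAM1-low libraries. The lowest Wilson 95% bound among the ICAM1-high libraries was 19.4%, and the bounds of ICAM1-low replicate 1 were 5.03% and 13.5%. The interval of ICAM1-low replicate 2 began at 11.2%. It overlapped that of ICAM1-high replicate 2 but not that of ICAM1-high replicate 1.

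PCDHGA2 was at 0.912 and 0.545 CPM in ICAM1-high, against 1.85 and 1.89 CPM in ICAM1-low, and was called lower, with -1.35 on the log2 scale (SE 0.40, adjusted p = 0.00244). The gene passed the filter through ICAM1-low alone, and was no longer called when ICAM1-high replicate 2 was left out (-1.03, adjusted p = 0.0694). Without ICAM1-high replicate 1 the value was -1.77. The other 6 tested gamma genes were not called. Among them PCDHGA7 was at 1.88 and 1.36 CPM in ICAM1-high, against 1.54 and 2.35 CPM in ICAM1-low, and PCDHGB5 at 1.02 and 1.09 CPM in ICAM1-high, against 1.09 and 1.04 CPM in ICAM1-low. The log2 fold changes of PCDHGB4, PCDHGA6, PCDHGA1 and PCDHGB1 were 0.70, 0.59, 0.25 and -0.29, with SE from 0.38 to 0.51. The 95% intervals of all 6 include a difference of 1.5-fold. Of the 14 untested gamma genes the most counted was PCDHGB3, with 8 and 10 counts in ICAM1-high, against 7 and 9 in ICAM1-low. PCDHGB2 had 5 and 5 counts in ICAM1-high, against 0 and 1 in ICAM1-low, a ratio of 8.37 (95% exact interval 1.19 to 363). Among the untested protocadherins counted in both subsets, PCDHGB2 and PCDHA13 were the only 2 whose interval left out 1. No interval was computed for genes with 0 counts in a subset, such as PCDHA8. These intervals were not corrected for the number of genes looked at.

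**Figure D4:**
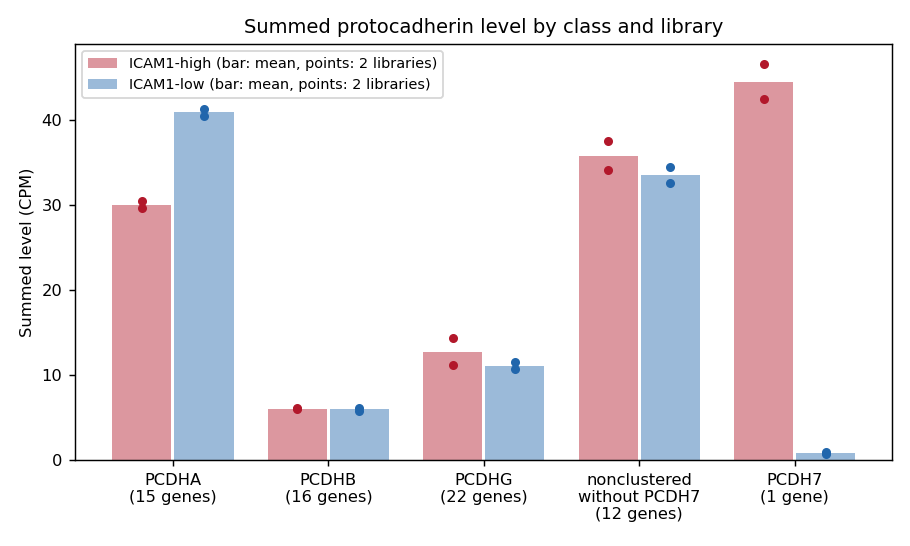
Summed level (CPM, linear axis from 0) of each class and library, with PCDH7 drawn apart from the other nonclustered genes, bars for means of 2 libraries and ICAM1-high in red left of ICAM1-low in blue. PCDH7 alone, at 44.5 CPM in ICAM1-high, against 0.809 CPM in ICAM1-low, differs more than any other pair of bars, and PCDHA is lower in ICAM1-high at 30.0 CPM against 40.9 CPM.

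The nonclustered genes summed to 79.9 and 80.7 CPM in ICAM1-high, against 33.3 and 35.5 CPM in ICAM1-low. Without PCDH7 they summed to 37.5 and 34.1 CPM in ICAM1-high, against 32.6 and 34.5 CPM in ICAM1-low, so PCDH7 accounts for the gap. Of the 13 genes 5 were tested, of which 2 were called higher, where 30.4% of all genes were. PCDH10, 1 of these 2, passed the filter through ICAM1-high alone. Of the same 5 genes edgeR called 0 lower, where 29.4% of all genes were, and 5 genes are few to set beside that share. Those called lower also numbered 0 with DESeq2, and 0 at an unadjusted p under 0.05.

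Divided by the exon bases that a gene does not share, levels could be compared between genes on 1 scale, CPM per kb of such exon. In ICAM1-high the order was PCDH7 at 3.63, PCDHAC2 at 3.51, PCDH1 at 1.47, PCDHA12 at 1.19 and PCDHGC3 at 1.08 CPM per kb. In ICAM1-low it was PCDHAC2 at 4.69, PCDHA12 at 2.51, PCDHAC1 at 1.67, PCDH1 at 1.59 and PCDH9 at 0.756 CPM per kb, with PCDH7 at 0.066. PCDH7 and PCDHAC2 in ICAM1-high differed by less than the spread of their libraries. These lengths count every annotated exon, used or not, and reach 30944 bases for PCDH9. Since counts of PCDHA and PCDHG genes may hold constant-exon reads, their values per kb may be too high beside those of PCDH7, PCDH1 and PCDH9.

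The promoters of the 4 called genes with the largest changes and a mean of at least 1 CPM are shown because 2 of them went each way and each clustered gene has a promoter of its own. Each is the 250 bases before the RefSeq gene start on the plus strand (GRCh38.p14), and capitals mark CGCT or its reverse complement AGCG. Neighbouring matches may overlap by 2 letters and each is counted. This motif is the core of a conserved sequence element known from most clustered protocadherin promoters.
PCDH7, chr4:30720119-30720368: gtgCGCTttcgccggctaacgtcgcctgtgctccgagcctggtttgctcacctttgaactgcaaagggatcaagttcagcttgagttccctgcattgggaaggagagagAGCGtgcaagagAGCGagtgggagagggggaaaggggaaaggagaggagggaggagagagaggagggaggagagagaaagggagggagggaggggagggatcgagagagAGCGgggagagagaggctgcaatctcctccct
PCDHGC3, chr5:141475716-141475965: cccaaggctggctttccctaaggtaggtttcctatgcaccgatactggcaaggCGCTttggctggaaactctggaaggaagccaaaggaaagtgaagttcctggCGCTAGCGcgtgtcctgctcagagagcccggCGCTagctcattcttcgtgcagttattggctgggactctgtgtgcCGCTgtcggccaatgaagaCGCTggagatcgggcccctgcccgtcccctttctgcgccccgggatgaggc
PCDHGA2, chr5:141338510-141338759: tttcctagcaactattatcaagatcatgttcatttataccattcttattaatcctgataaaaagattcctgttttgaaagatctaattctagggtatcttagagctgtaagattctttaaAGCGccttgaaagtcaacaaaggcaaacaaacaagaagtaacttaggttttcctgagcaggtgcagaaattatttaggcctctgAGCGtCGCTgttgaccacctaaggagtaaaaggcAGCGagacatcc
PCDHA12, chr5:140875058-140875307: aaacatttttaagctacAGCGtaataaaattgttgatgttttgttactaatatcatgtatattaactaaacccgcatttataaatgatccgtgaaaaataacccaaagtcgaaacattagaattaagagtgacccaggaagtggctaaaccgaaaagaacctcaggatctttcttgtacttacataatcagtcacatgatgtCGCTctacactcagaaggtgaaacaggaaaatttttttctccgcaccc

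The 4 letters occurred 4 times in the PCDH7 window, 6 times in that of PCDHGC3, 4 times in that of PCDHGA2 and 2 times in that of PCDHA12, counting both strands. Of the 66 genes 58 were matched to a RefSeq promoter by symbol, and 55 of these (94.8%) held at least 1 match. They were 45 of 47 clustered and 10 of 11 nonclustered genes, so a match did not set the clustered genes apart. Of all 35116 promoter windows of the same length 64.8% held one. G and C made up 59.6% of the PCDH7 window, against 37.6% in PCDHGA2 and 34.8% in PCDHA12. The 4 C-type windows (PCDHAC1, PCDHAC2, PCDHGC3 and PCDHGC4) ranged from 57.6% to 63.2%, above all 43 other clustered windows, which ranged from 30.0% to 48.8%. PCDHAC1 and PCDHAC2 were called lower and PCDHGC3 higher in ICAM1-high, while PCDHGC4 had 0 counts.

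Choice of clustered promoters is known to rest on CTCF and cohesin, which loop a promoter to its enhancer, and on DNA methylation. Of 20 such regulators listed all were tested, of which 7 were called higher and 7 lower, with a median log2 fold change of 0.02. Since 59.7% of all genes were called, these counts do not set the regulators apart. CTCF itself was at 77.8 CPM in ICAM1-high, against 73.4 CPM in ICAM1-low, and was not called. The cohesin subunit gene SMC1A was higher by 0.49 on the log2 scale (SE 0.04, adjusted p = 8.57e-17), and NIPBL, the cohesin loader, by 0.35 (SE 0.06). Other cohesin genes were called in both directions. PDS5B (0.45) and the subunit RAD21 (0.10) were higher. Among those lower were the subunits SMC3 (-0.23) and STAG2 (-0.22), the loader partner MAU2 (-0.28) and PDS5A (-0.28). DNMT3B, the de novo DNA methyltransferase that in mouse methylates clustered promoters, had 572 counts in ICAM1-high, against 124 in ICAM1-low (log2 fold change 1.95, SE 0.16, adjusted p = 1.79e-17). TET3, which oxidises methylcytosine, was lower with a log2 fold change of -0.57 (SE 0.06).

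Downstream, protocadherins are cut by ADAM10 and gamma-secretase and act through the FAK and PYK2 kinases, FYN and the WAVE actin complex. Of 21 genes of these groups 20 were tested, of which 5 were called higher and 10 lower in ICAM1-high, beside 30.4% and 29.4% of all genes, with a median log2 fold change of -0.14. FYN, a Src family kinase, was at 55.9 CPM in ICAM1-high, against 8.79 CPM in ICAM1-low (log2 fold change 2.67, SE 0.10, adjusted p = 1.46e-35). TAOK2, a kinase that acts with PCDH8 in rat, was higher by 1.24 on the log2 scale (SE 0.06), although PCDH8 itself had 0 counts. The WAVE complex subunits NCKAP1 and WASF2 were lower, with log2 fold changes of -0.65 (SE 0.04) and -0.61 (SE 0.05). ADAM10 was at 275 CPM in ICAM1-high, against 280 CPM in ICAM1-low, and was not called.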

How the data were processed

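Per the labels' protocols, Trizol was used for RNA and a SMARTer kit for mRNA-seq libraries. Deposited by the authors were raw counts per gene as whole numbers, with 1 column per library. GRCh38 and FastQC 0.10.1 are named, per the submitters' processing notes. The aligner, counting program, strand setting and treatment of shared reads are not stated in the sources used. Symbols came from a gene name table, and types, positions and exons from GENCODE release 29, which lists all 58735 identifiers.

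Genes were compared with edgeR 4.0.16 in R 4.3.3 (quasi-likelihood test, robust, TMM, minimum count 10, minimum total 15), with group as the only term and Benjamini-Hochberg adjustment over 16250 genes. SE is the absolute log2 fold change divided by the root of F, and intervals are 95%. The method was tested on simulated data in which few genes changed, equally in both directions. Far more genes were called here, so the simulation cannot judge the scaling of these data. Alternatives were other scaling and filters, DESeq2 1.42.0, a replicate block, and each library left out. All protocadherins passing the filter are named, and others by count. From each list, up to 4 called genes with the smallest adjusted p were taken. CTCF, RAD21, SMC3, STAG2, MAU2, PDS5A, PDS5B and ADAM10 were added after their values were seen. Members and lists were chosen with earlier results of these data known. A shared protein stretch was planned and is not shown.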

Additional observations from a re-analysis of the deposited data

How the results depend on the processing

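PCDH7, PCDHGC3, PCDHA12 and PCDHAC1 kept direction and call in all 10 alternatives, and PCDH10 in the 8 that tested it. Of 225 values of single genes under alternatives, 11 lost and 3 gained a call and 0 reversed. With scaling by library size alone, which moved the median over genes up by 0.17 (log2), 6735 genes were called higher and 3124 lower (68.3% of calls higher, against 50.8%). Protocadherins called were then 6 higher and 3 lower, with PCDHA 1 higher, PCDHB 0 lower and nonclustered 4 higher. Under a minimum mean of 1 CPM, nonclustered genes called higher numbered 1. PCDHB genes called lower, 1 in the fit reported, numbered 0 with no filter, under a minimum mean of 1 CPM, with DESeq2, with the replicate block, and in all 4 omissions of a library. Omitting single libraries gave 2 to 3 protocadherins called higher and 3 to 4 lower, with PCDHG 0 to 1 lower and nonclustered 1 to 2 higher. The correlation of deviations between same-numbered libraries was 0.042, a single value with 2 libraries a subset, and the numbers were not taken as pairs. The replicate block gave 3 protocadherins higher and 4 lower, and 4976 and 4836 genes over all. Libraries of a subset differed by more than sampling noise (chi-square per degree of freedom 3.07 in ICAM1-high and 1.86 in ICAM1-low). Depth limits the 43 untested genes, of which 9 had 0 counts and 34 had 1 to 34 over the 4 libraries.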

Other observations

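Of 15 large cadherin relatives outside the PCDH symbols, 12 were tested, of which 4 were called higher and 3 lower in ICAM1-high (edgeR quasi-likelihood test, adjusted over all genes), against 30.4% and 29.4% of all genes. FAT1, a giant atypical cadherin of epithelia, was at 410 CPM in ICAM1-high, against 473 CPM in ICAM1-low (log2 fold change -0.21, SE 0.04). CELSR2, a planar polarity receptor, was at 56.4 CPM in ICAM1-high, against 25.8 CPM in ICAM1-low (1.13, SE 0.08), whereas its relatives CELSR1 (0.21) and CELSR3 (-0.30) differed less and in opposite directions.

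The 11 pseudogene and antisense rows with a PCDH symbol had at most 1 count in any library. Of 8 leukocyte markers 2 were tested, with CD14 called higher and ITGAM lower, and PTPRC had 0 counts in all libraries.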
